A study of Caenorhabditis elegans with 6 samples.

Results

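Gene families named for their part in sperm were followed through whole-animal RNA-seq of Caenorhabditis elegans: the msp genes (major sperm protein), the spe genes (spermatogenesis defective), fer-1 (fertilization defective) and the ssp genes (sperm-specific family, whose small proteins resemble the major sperm protein). Members were chosen by symbol alone, as every measured gene whose WormBase symbol starts with one of these names. They numbered 82 of 22010 genes, namely 35 msp, 34 spe, 1 fer and 12 ssp genes. Of these, 73 carried their symbol in the Ensembl annotation and 9 in RefSeq only, and 4 of the 9 were msp pseudogenes (msp-37, msp-42, msp-52 and msp-71).

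The libraries came from 3 biological replicates of pals-25(icb98) and 3 of WT, all harvested as L4 larvae grown at 20°C on E. coli OP50. The icb98 allele is a nonsense change that removes the tail of the PALS-25 protein, is described by the study as gain-of-function, and was recovered after chemical mutagenesis, so the mutant line derives from 1 isolate. Mutant and WT animals both carry the integrated reporter icbIs4[chil-27p::gfp, col-12p::mCherry]. The study compared them to find genes whose expression is altered without infection, and the sperm genes were not its subject. Each library holds the RNA of whole animals, so that fewer sperm-producing cells and less RNA per cell cannot be told apart in any value below.

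A C. elegans hermaphrodite makes sperm first, during the last larval stage, and then switches its germ line to oocytes. Major sperm protein is the main protein of the crawling nematode spermatozoon, where it forms the filaments that take the place of actin, and it is also released as a signal that drives oocyte maturation and ovulation. It is encoded by many near-identical genes, all transcribed while spermatocytes are formed. The spe and fer genes were mostly found through mutants whose sperm fail to form, to activate or to fertilize.

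Total estimated counts per library ran between 40709626 and 47297002. The transcript level of pals-25 itself was 4.08, 4.24 and 3.78 CPM (estimated counts put on a shared scale by library size and edgeR's TMM factors, as are all CPM values here) in the pals-25(icb98) libraries and 1.88, 2.47 and 1.77 CPM in the WT libraries. The nonsense change leaves the transcript to be counted, so that this value does not check the genotype. WT replicate 2 stood apart from every other library: 2078 of the 16166 tested genes differed over 2-fold between WT replicates 1 and 2, and 1839 between WT replicates 2 and 3, against 15 between WT replicates 1 and 3 and 11 to 29 between pairs of mutant libraries. The counts of called genes are therefore given with and without that library.

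The sperm genes share a layout that the choice by symbol did not use. Of the 82 members, 18 lie on chromosome I, 17 on II, 3 on III, 37 on IV and 7 on V, and 0 on X, which holds 13.5% of the 19725 measured protein-coding genes. All 35 msp genes lie on II (15) or IV (20), and all 35 have a single exon, against 3.04% of measured protein-coding genes. The ssp genes had a single exon in 9 of 12 cases, while the spe genes had a median of 6.5 exons. Runs of neighbours less than 50 kb apart were frequent. On chromosome IV (WBcel235), msp-19, msp-52, msp-51, msp-113, msp-58, msp-59 and msp-65 lie between positions 5260589 and 5316906, and 4 further msp genes (msp-81, msp-10, msp-56 and msp-77) lie with ssp-10, ssp-32 and spe-29 between 9836034 and 9934322.

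Limits of the counting bear on single members. Reads of near-identical msp copies are divided among them by the quantification, so that a family sum is firmer than the value of any 1 copy. In addition, 16 members overlap another protein-coding gene or a pseudogene: spe-5, spe-9, spe-15, spe-19, spe-21, spe-26, spe-27, spe-29 (whose end overlaps that of gon-1 on the opposite strand), spe-36, spe-38, spe-49, msp-31, msp-33, msp-37, msp-38 and msp-45. Whether strand was used in the counting is not given in the sources used here.

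Major sperm protein genes were the most abundant members. Summed over the 35 genes, they reached 2927, 2610 and 3071 CPM in the 3 mutant libraries, in replicate order, and 2229, 607.7 and 2304 CPM in the 3 WT libraries. Scaled by transcript length, they made up 0.866%, 0.799% and 0.923% of all TPM (abundance per transcript length, scaled to a common total) in the mutant libraries and 0.672%, 0.19% and 0.699% in the WT libraries. All 3 mutant sums were above all 3 WT sums, and WT replicate 2 lay far below the rest.

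The spe genes summed to 826.9, 750.8 and 846.5 CPM in the mutant libraries and to 730.9, 342.2 and 731.3 CPM in the WT libraries. The 12 ssp genes summed to 317, 280.1 and 344 CPM in the mutant libraries and to 245.9, 77.4 and 251.1 CPM in the WT libraries. In both families the order of the libraries was the same as for msp, with the mutant libraries highest, WT replicates 1 and 3 close together and WT replicate 2 lowest. fer-1 followed another order, with 51.5, 48.7 and 49.5 CPM in the mutant libraries, below the 61.9 and 58.2 CPM of WT replicates 1 and 3 but above the 38.25 CPM of WT replicate 2.

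**Figure D1:**
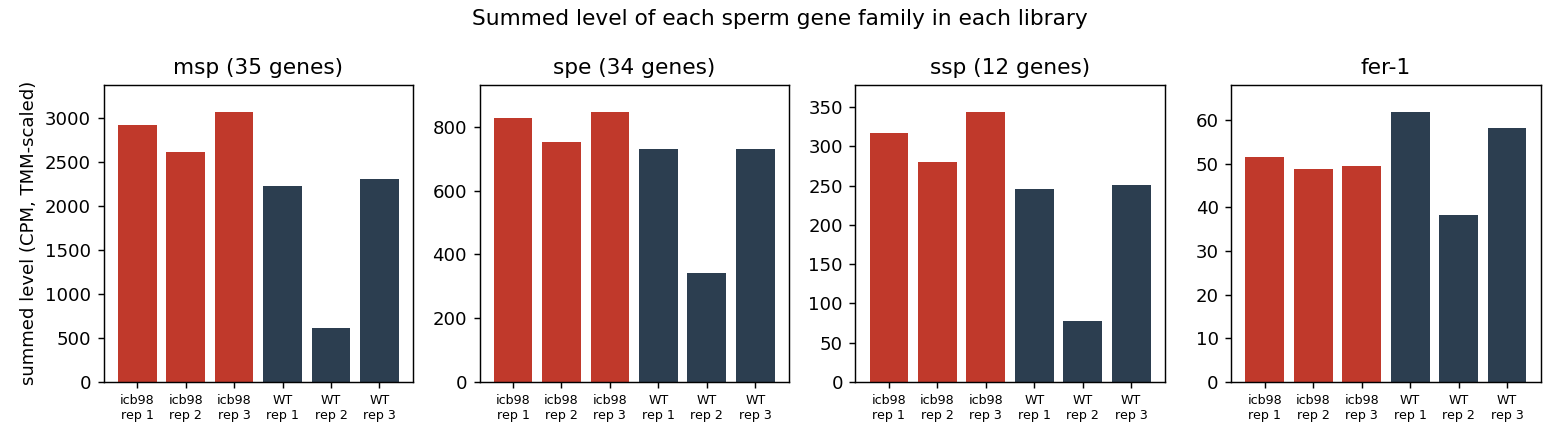
Summed level in CPM (TMM-scaled) of the msp, spe and ssp genes and the level of fer-1 in each library, pals-25(icb98) in red and WT in dark blue, with 1 bar per library and each axis starting at 0. WT replicate 2 has the lowest bar in every panel (607.7 CPM for msp), and the mutant bars exceed the other WT bars for msp, spe and ssp but not for fer-1.

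Over all 82 genes the sum averaged 4041 ± 318.5 CPM in pals-25(icb98) and 2559 ± 1294 CPM in WT (SD, n = 3 each), a ratio of 1.58. Against the mean of WT replicates 1 and 3 alone, 3306 CPM, the ratio was 1.22. The ratio differed among the families: against WT replicates 1 and 3 it was 1.27 for msp, 1.26 for ssp, 1.105 for spe and 0.832 for fer-1.

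Gene by gene, the edgeR quasi-likelihood test over all 6 libraries called few members. Of 80 members that passed the filter on low counts, 2 were called higher in pals-25(icb98) (Benjamini-Hochberg adjusted p below 0.05) and 0 lower. Over all 16166 tested genes, 9.8% were called higher and 10.7% lower. At an unadjusted p under 0.05, 3 members were higher and 0 lower (16.2% and 19.8% of all tested genes), and DESeq2 called 3 higher and 0 lower. The median log2 difference of the tested members was nevertheless 0.625, against 0.005 over all tested genes. Of the 80 estimates, 75 were above 0, against 8182 of 16166 over all tested genes. The mutant libraries all lay above the WT libraries for 50 members, and below them for 0, where 24.4% and 24.8% of all tested genes did so. Most sperm genes thus had estimates above 0 without passing the threshold.

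Both called members are among the lowest expressed. ssp-37 (W02D9.5, chromosome I, positions 12561040 to 12561560) had 0.886, 0.829 and 1.15 CPM in pals-25(icb98), against 0.232, 0.0727 and 0.394 CPM in WT. It rose with a log2 difference of 2.03 (SE 0.49, edgeR adjusted p = 0.0361). The pseudogene msp-52 (F36H12.6, chromosome IV, positions 5265592 to 5265921) had 0.816, 0.851 and 0.814 CPM in the mutant, against 0.379, 0.339 and 0.517 CPM in WT. It rose with a log2 difference of 1.005 (SE 0.235, edgeR adjusted p = 0.0326). The groups do not overlap for either gene, where 24.4% of all tested genes had all mutant libraries above all WT libraries. msp-52 was the tested msp gene whose level in WT replicate 2 lay closest to that of the other WT libraries. Both calls were lost when WT replicate 1 or any 1 mutant library was left out, and msp-52 was also lost without WT replicate 3, with adjusted p up to 0.111 for msp-52 and 0.126 for ssp-37.

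The msp genes with the highest levels per length illustrate the spread. msp-19 had 177, 156.6 and 182.4 CPM in the mutant libraries, against 122.7, 34.6 and 134.7 CPM in the WT libraries. Its log2 difference was 0.82 (SE 0.48, edgeR adjusted p = 0.274), and 0.42 (SE 0.07, edgeR adjusted p = 0.00148) without WT replicate 2, in which fit it was called. msp-81 had 170.2, 149.4 and 176 CPM in the mutant libraries, against 136.9, 38.4 and 139.3 CPM in the WT libraries. For each the mutant libraries were all above the WT libraries, as for 24.4% of all tested genes. WT replicates 1 and 3 lay nearer to the mutant than to WT replicate 2. The third by mean TPM (msp-19 had 398.5, msp-81 393 and msp-40 384 TPM) was msp-40, with 161.4, 142.1 and 162.6 CPM in the mutant libraries and 138.8, 41.6 and 134.2 CPM in the WT libraries.

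Leaving out WT replicate 2 changed the count of calls. Without it, 41 members were called higher and 2 lower, where 19.3% and 18.1% of 16394 tested genes were called. The members' median log2 difference was 0.268, and 67 of the 80 estimates were above 0. Of the 16166 genes tested with all 6 libraries, 8151 had estimates above 0 in this fit. The mutant libraries lay wholly above WT replicates 1 and 3 for 50 members and wholly below them for 5, against 30.5% and 31% of all tested genes. This fit has 2 WT libraries, and the members' standard errors in it had a median of 0.081, against 0.422 in the fit on 6 libraries.

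In that fit 26 of 33 tested msp genes rose, by log2 differences of 0.186 to 0.891 with a median of 0.363, a 1.29-fold difference, and with edgeR adjusted p between 0.000288 and 0.0429. The sperm-specific family rose in 8 of 12 genes, led by ssp-37 (1.62) and ssp-19. Over all tested genes, 19.3% rose in that fit. ssp-19 had 5.5, 5.45 and 7.78 CPM in the mutant libraries, against 2.89 and 3.25 CPM in WT replicates 1 and 3, and 0.969 CPM in WT replicate 2. Its log2 difference without WT replicate 2 was 1.03 (SE 0.18, edgeR adjusted p = 0.00132). The 4 ssp genes not called were ssp-9, ssp-31, ssp-32 and ssp-36.

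Of the 34 spe genes, 7 rose without WT replicate 2 (spe-8, spe-11, spe-15, spe-18, spe-54, spe-55 and spe-58), by log2 differences of 0.237 to 0.435. This share is near the 19.3% of all tested genes called higher in that fit, and the difference between the families was not tested. The 2 members that fell were the regulator spe-44 (log2 difference -0.32, SE 0.07, edgeR adjusted p = 0.00314) and fer-1 (-0.27, SE 0.055, edgeR adjusted p = 0.00266). With all 6 libraries neither was called. spe-44 then gave -0.20 (SE 0.12, edgeR adjusted p = 0.275) and fer-1 gave -0.08 (SE 0.18, edgeR adjusted p = 0.769).

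**Figure D2:**
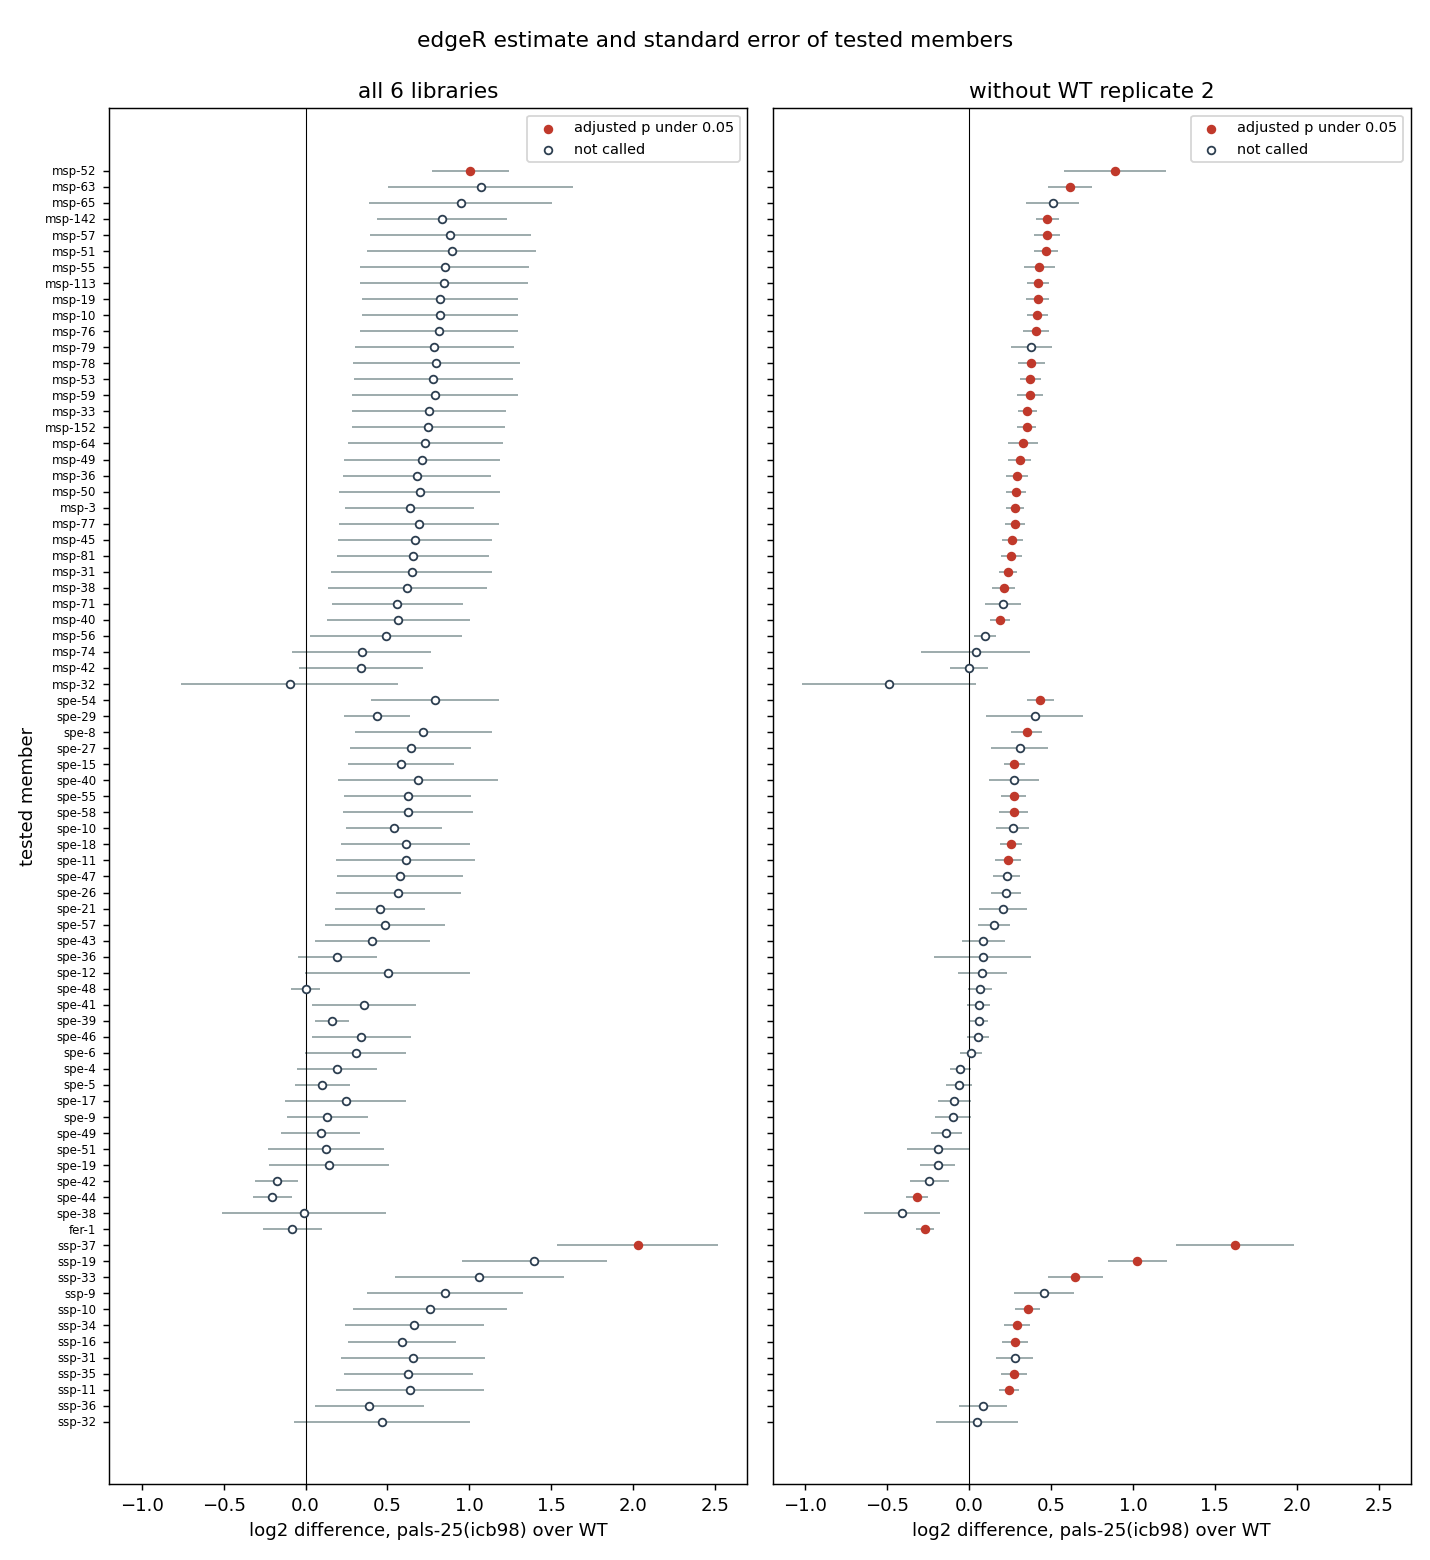
edgeR log2 difference of 79 of the 80 tested members, pals-25(icb98) over WT, with its standard error as a bar, from all 6 libraries (left) and without WT replicate 2 (right), ordered within each family by the right panel, and with members at an adjusted p under 0.05 filled. In the left panel 2 members are filled and the bars are long, with a median standard error of 0.422 over all 80, whereas in the right panel 43 are filled, 41 to the right of 0.

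The larger contrast among these libraries lay within WT. WT replicate 2 against the mean of WT replicates 1 and 3 is a comparison of 1 library with 2 of its own group, so it is described here without a test. The median log2 ratio over the 80 members was -1.54, a level 2.91-fold lower. In WT replicate 2, 67 members were over 2-fold lower and 0 over 2-fold higher, where 11.8% of all tested genes were over 2-fold lower and 4% over 2-fold higher. It was the lowest of all 6 libraries for 75 of the 80 members, compared with 33.5% of all tested genes. The ratios above add 0.1 CPM. With 0.5 CPM added to each level, 62 members differed over 2-fold between WT replicates 1 and 2, and 58 between WT replicates 2 and 3. By that measure, 0 members did so in the 4 pairs of same-group libraries that leave out WT replicate 2. Without any addition msp-32 did, at 0.396 CPM in mutant replicate 1 and 0.0905 CPM in mutant replicate 3.

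The ratio was not the same in every family. The summed msp level in WT replicate 2 was 26.8% of the mean of WT replicates 1 and 3, the summed ssp level 31.2%, the summed spe level 46.8% and fer-1 63.7%. The msp share of the members' summed TPM was 78.6% in WT replicate 2, and between 83.4% and 84.3% in the other 5 libraries, while the spe share was 10.4% there and between 5.57% and 6.57% elsewhere. By gene, 32 of 33 msp, 12 of 12 ssp and 23 of 34 spe genes were over 2-fold lower. The lowest ratios belonged to msp-63 (log2 ratio -2.26), msp-65 (-2.23) and msp-51 (-2.07). msp-63 had 0.581 CPM in WT replicate 2, against 3.1 and 3.25 CPM in WT replicates 1 and 3, and 4.89, 4.46 and 5.23 CPM in the mutant libraries. msp-65 had 8.02 CPM there, against 35.2 and 40.9 CPM in WT replicates 1 and 3, and 56.6, 44.5 and 61.2 CPM in the mutant libraries. msp-51 had 24.5 CPM there, against 98 and 107.8 CPM in WT replicates 1 and 3, and 142.7, 130.2 and 154.5 CPM in the mutant libraries. All 3 genes kept the order of the family sum, with the mutant libraries highest.

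**Figure D3:**
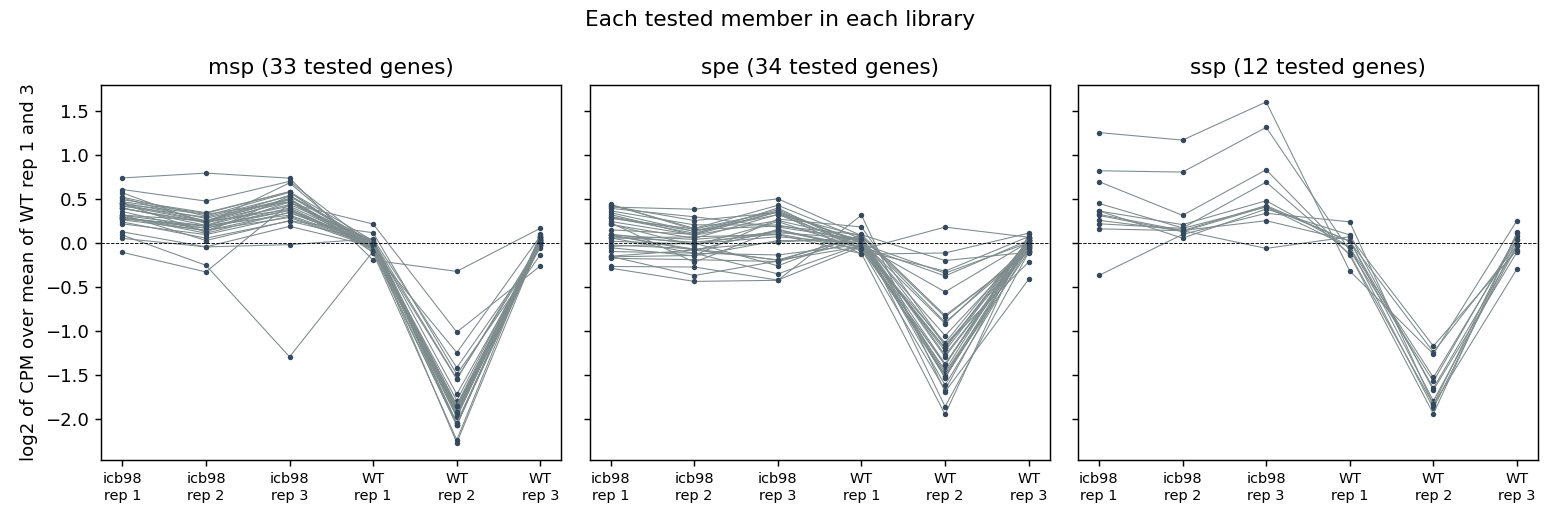
CPM of each tested msp, spe and ssp gene in each library as the log2 ratio to the mean of WT replicates 1 and 3 (dashed line at 0), with 1 line per gene. Nearly all lines dip at WT replicate 2, to a median of -1.90 for msp, -1.21 for spe and -1.66 for ssp, and the spe panel holds the lines that do not dip.

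The mutant libraries varied far less among themselves. Set against the mean of the other 2 mutant libraries, the members' median log2 ratio was 0.05 for replicate 1, -0.18 for replicate 2 and 0.13 for replicate 3. pals-25(icb98) replicate 2 was nonetheless the lowest mutant library for 65 of 80 members and replicate 3 the highest for 52, so that members also moved together within the mutant group, over a narrower range.

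Across the 80 members, those with higher mean TPM had lower ratios in WT replicate 2 (Pearson's r = -0.62, Spearman's rho = -0.66). Within the 34 spe genes alone the relation was weak (r = -0.13, rho = -0.15). These are descriptions across genes that share the same libraries, and the msp genes make up most of the high end.

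By role, the spe genes ranged from those that act as spermatocytes form to those used at fertilization. spe-44 encodes a transcriptional regulator of sperm genes, and it was one of the members that WT replicate 2 hardly lowered. It had 28.5, 28.3 and 25.6 CPM in pals-25(icb98), against 33.4, 26.4 and 35 CPM in WT, a log2 ratio of -0.37 for WT replicate 2. The mutant libraries were all below WT replicates 1 and 3, and WT replicate 2 lay among them.

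Genes for spermatocyte meiosis, for the fibrous body-membranous organelles that carry major sperm protein, and for vesicle traffic gave a median log2 ratio of -0.98 over 6 genes in WT replicate 2. spe-6, a casein kinase of the spermatocyte, had 33.2, 29.8 and 31.5 CPM in the mutant, against 32.7, 13.95 and 29.8 CPM in WT. spe-18, needed to assemble fibrous bodies, had 171.7, 151.6 and 179.6 CPM in the mutant, against 140.6, 48.6 and 139.7 CPM in WT. Without WT replicate 2, spe-18 rose (log2 difference 0.26, SE 0.07, edgeR adjusted p = 0.013) and spe-6 gave 0.01 (SE 0.07, edgeR adjusted p = 0.917). Both were lowest in WT replicate 2. The difference between their mutant estimates was not tested.

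The others of this role were spe-4 (a presenilin relative), spe-5 (a subunit of the vacuolar proton pump), spe-10 (a palmitoyltransferase) and spe-39 (a vesicle traffic factor that other tissues also use). Their log2 ratios in WT replicate 2 were -0.91, -0.55, -1.05 and -0.34, in that order. spe-4 had 37.2, 34.9 and 39.4 CPM in the mutant, against 39.2, 20.4 and 37.9 CPM in WT. spe-5 had 20.5, 18.1 and 17.9 CPM in the mutant, against 19.5, 13.4 and 19.9 CPM in WT. In both, the mutant libraries overlapped WT replicates 1 and 3. spe-10 did not overlap, with 9.42, 8.43 and 8.41 CPM in the mutant, against 7.44, 3.46 and 7.11 CPM in WT. spe-39 had 35.6, 32.9 and 34.9 CPM in the mutant, against 33, 26.2 and 33.3 CPM in WT. spe-7, also looked for in this role, was not matched among the measured genes.

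Asymmetric division after meiosis, when spermatids bud from a residual body, is represented by the myosin gene spe-15 and by spe-26, which encodes a kelch-repeat protein. spe-15 had 136.8, 121.9 and 144.3 CPM in the mutant, against 110.7, 47.5 and 111.1 CPM in WT, with all mutant libraries above all WT libraries. Without WT replicate 2 spe-15 rose by a log2 difference of 0.28 (SE 0.07, edgeR adjusted p = 0.00853). spe-26 had 23.9, 23.1 and 28.4 CPM in the mutant, against 20.6, 7.87 and 22.4 CPM in WT, and gave 0.225 (SE 0.09, edgeR adjusted p = 0.0838) in the same fit.

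Sperm activation, in which the round spermatid extends a pseudopod, depends in hermaphrodites on the spe-8 group. spe-8, a tyrosine kinase gene, had 18.7, 15.5 and 18.6 CPM in the mutant, against 14.3, 4.46 and 13.3 CPM in WT. spe-12 had 3.01, 3.05 and 3.1 CPM in the mutant, against 2.66, 0.678 and 3.12 CPM in WT, and its log2 ratio of -1.94 in WT replicate 2 was the lowest of the spe genes. The log2 ratios of spe-19, spe-27 and spe-43 were -1.37, -1.29 and -1.27. spe-19 had 5.69, 5.62 and 5.54 CPM in the mutant, against 6.56, 2.42 and 6.27 CPM in WT. spe-27 had 2.4, 2.24 and 2.06 CPM in the mutant, against 1.85, 0.678 and 1.75 CPM in WT. spe-43 had 4.01, 3.88 and 4.09 CPM in the mutant, against 3.9, 1.5 and 3.62 CPM in WT. The mutant libraries were thus all below WT replicates 1 and 3 for spe-19, all above them for spe-27 and overlapping them for spe-43. The remaining gene, spe-29, did not follow them, with 0.816, 0.717 and 0.769 CPM in the mutant, against 0.527, 0.533 and 0.64 CPM in WT, a log2 ratio of -0.11. It overlaps gon-1, as given above, and the part of that overlap in its value was not tested. Of the 6, 1 (spe-8, log2 difference 0.35, SE 0.1, edgeR adjusted p = 0.0142) rose without WT replicate 2, a share near the 19.3% of all tested genes.

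The last group acts at fertilization, when sperm and egg meet and fuse. Of 8 genes, 0 were called in either direction, with all libraries or without WT replicate 2. Of all tested genes, 9.8% rose and 10.7% fell in the first fit, and 19.3% and 18.1% in the second. The median log2 differences of the 8 genes were 0.13 and -0.12. spe-41, a calcium channel gene, had 47.4, 42 and 49.4 CPM in the mutant, against 43.2, 19.4 and 45.7 CPM in WT. spe-9, an EGF-repeat protein of the sperm surface, had 9.95, 10.2 and 8.53 CPM in the mutant, against 10.9, 5.74 and 9.47 CPM in WT. In both, the mutant libraries overlapped WT replicates 1 and 3, and WT replicate 2 was lowest.

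Further fertilization genes lay at or below 11.8 CPM. spe-38 had 1.7, 1.52 and 1.54 CPM in the mutant, against 2.63, 0.581 and 1.55 CPM in WT, and its log2 difference of -0.01 (SE 0.5, edgeR adjusted p = 0.991) changed sign with the processing. spe-42 had 6.76, 5.8 and 6.52 CPM in the mutant, against 8.03, 6.54 and 6.99 CPM in WT. Its log2 ratio in WT replicate 2 was -0.20, and that of spe-36 was -0.32, whereas spe-49 (-0.84) and spe-51 (-1.19) were lower. spe-49 had 10.02, 10.5 and 9.73 CPM in the mutant, against 11.8, 6.18 and 10.5 CPM in WT. spe-51 and spe-36 encode products that the sperm secrete. spe-51 had 1.77, 1.75 and 1.47 CPM in the mutant, against 1.88, 0.775 and 1.92 CPM in WT. spe-36 had 0.863, 0.605 and 0.814 CPM in the mutant, against 0.675, 0.557 and 0.763 CPM in WT. The role therefore held both genes that WT replicate 2 lowered and genes it left near the level of its group.

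spe-11 is carried by the sperm into the egg, where the embryo needs it. It had 43, 38.6 and 46.3 CPM in the mutant, against 34.5, 11.4 and 37.8 CPM in WT, and rose without WT replicate 2 (log2 difference 0.24, SE 0.08, edgeR adjusted p = 0.0385). fer-1 encodes the ferlin that lets the membranous organelles fuse with the plasma membrane at activation, and its log2 ratio in WT replicate 2 was -0.65.

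A single tested member was higher in WT replicate 2 than in the mean of the other WT libraries. spe-48 had 22.6 CPM there, against 18.9 and 20.9 CPM in WT replicates 1 and 3, and 21, 20.1 and 21.4 CPM in the mutant libraries. Its log2 ratio was 0.18 and its log2 difference between mutant and WT was 0.00 (SE 0.09, edgeR adjusted p = 0.997). The highest ratios after it were those of spe-29 and spe-42, both below 0. spe-48 is 1 of 10 spe genes to which no role was assigned here, and over these 10 the median log2 ratio was -1.43. Of the 10, 3 rose without WT replicate 2 (spe-54, spe-55 and spe-58) and 0 fell, where 19.3% of all tested genes rose and 18.1% fell.

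Of the ssp genes with the highest levels per length, ssp-11 had 70.2, 61.7 and 66.7 CPM in the mutant, against 57.1, 16.1 and 54.6 CPM in WT, and ssp-10 had 46.6, 41.8 and 50.5 CPM, against 35.1, 9.79 and 37.1 CPM. ssp-9 had 62.1, 51.2 and 73.4 CPM in the mutant, against 41.6, 12.7 and 49.1 CPM in WT. In all 3 the mutant libraries lay above the WT libraries, as they did for 24.4% of all tested genes. With all 6 libraries, ssp-11, ssp-10 and ssp-9 were not called (edgeR adjusted p = 0.358, 0.302 and 0.259). The remaining ssp genes had log2 ratios in WT replicate 2 between -1.94 (ssp-33) and -1.17 (ssp-36).

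Among the remaining msp genes, 2 had counts too low to be tested: the pseudogene msp-37, at 0.0242 to 0.169 CPM over the 6 libraries, and msp-58, at 0 to 0.0679 CPM. msp-32, msp-42, msp-56, msp-71 and msp-74 were tested, and overlapped between mutant and WT also when WT replicate 2 was left out. The lowest of these, msp-32, had 0.396, 0.291 and 0.0905 CPM in the mutant, against 0.337, 0.0969 and 0.394 CPM in WT, and is the 1 tested msp gene with an estimate below 0. msp-56, the most abundant of these 5, had 94.6, 84 and 98.8 CPM in the mutant, against 84.3, 24.2 and 88.6 CPM in WT.

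The msp genes were also taken by chromosome. The 15 genes on chromosome II had a median log2 ratio of -1.85 in WT replicate 2, and the 18 tested genes on chromosome IV one of -1.94. Without WT replicate 2, 11 of 15 on II and 15 of 18 on IV rose, and 0 fell, where 19.3% of all tested genes rose and 18.1% fell.

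Genes of the sperm that carry other names were also lowest in WT replicate 2. From a list of 18 measured genes, including gsp-3 and gsp-4 (phosphatases of sperm), spch-1 to spch-3 (sperm chromatin), msd-1 to msd-4 (small relatives of major sperm protein) and the nspd genes, the summed level was 1495, 1296 and 1511 CPM in the mutant libraries and 1176, 357.1 and 1173 CPM in the WT libraries. All 18 were over 2-fold lower in WT replicate 2, with a median log2 ratio of -1.75. With all libraries 0 were called, where 9.8% of all tested genes rose and 10.7% fell. At an unadjusted p under 0.05, by edgeR, 0 were higher or lower (16.2% and 19.8% of all tested genes). Without WT replicate 2, 11 rose and 0 fell (19.3% and 18.1% of all tested genes).

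Genes that set the sperm fate of a germ cell did not share one direction. Over 14 such regulators the median log2 ratio in WT replicate 2 was -0.10, with 0 over 2-fold lower and 1 over 2-fold higher. fog-1 and fog-3 are the final switches that commit germ cells to sperm. fog-1 had 8.67, 9.1 and 8.98 CPM in the mutant, against 7.82, 18.2 and 8.83 CPM in WT, and fog-3 had 6.92, 7.91 and 6.79 CPM in the mutant, against 9.8, 17.8 and 9.94 CPM in WT. Both were higher in WT replicate 2 than in any other library, by log2 ratios of 1.12 and 0.845 to its own group. Other regulators went the opposite way: gld-1, at 452.1, 405.9 and 470.9 CPM in the mutant and 384.5, 216 and 388.3 CPM in WT, had a log2 ratio of -0.84, fog-2 had one of -0.42, and WT replicate 2 was the lowest library for 5 of the 14. fog-3 fell in the mutant without WT replicate 2 (log2 difference -0.45, SE 0.1, edgeR adjusted p = 0.00523) and was not called with it (-0.80, SE 0.26, edgeR adjusted p = 0.0819). Of the 14 regulators, fem-2 rose and fbf-1 and fbf-2 fell with all libraries, and 3 rose and 4 fell without WT replicate 2. Over all tested genes 9.8% rose and 10.7% fell in the first fit, and 19.3% and 18.1% in the second.

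**Figure D4:**
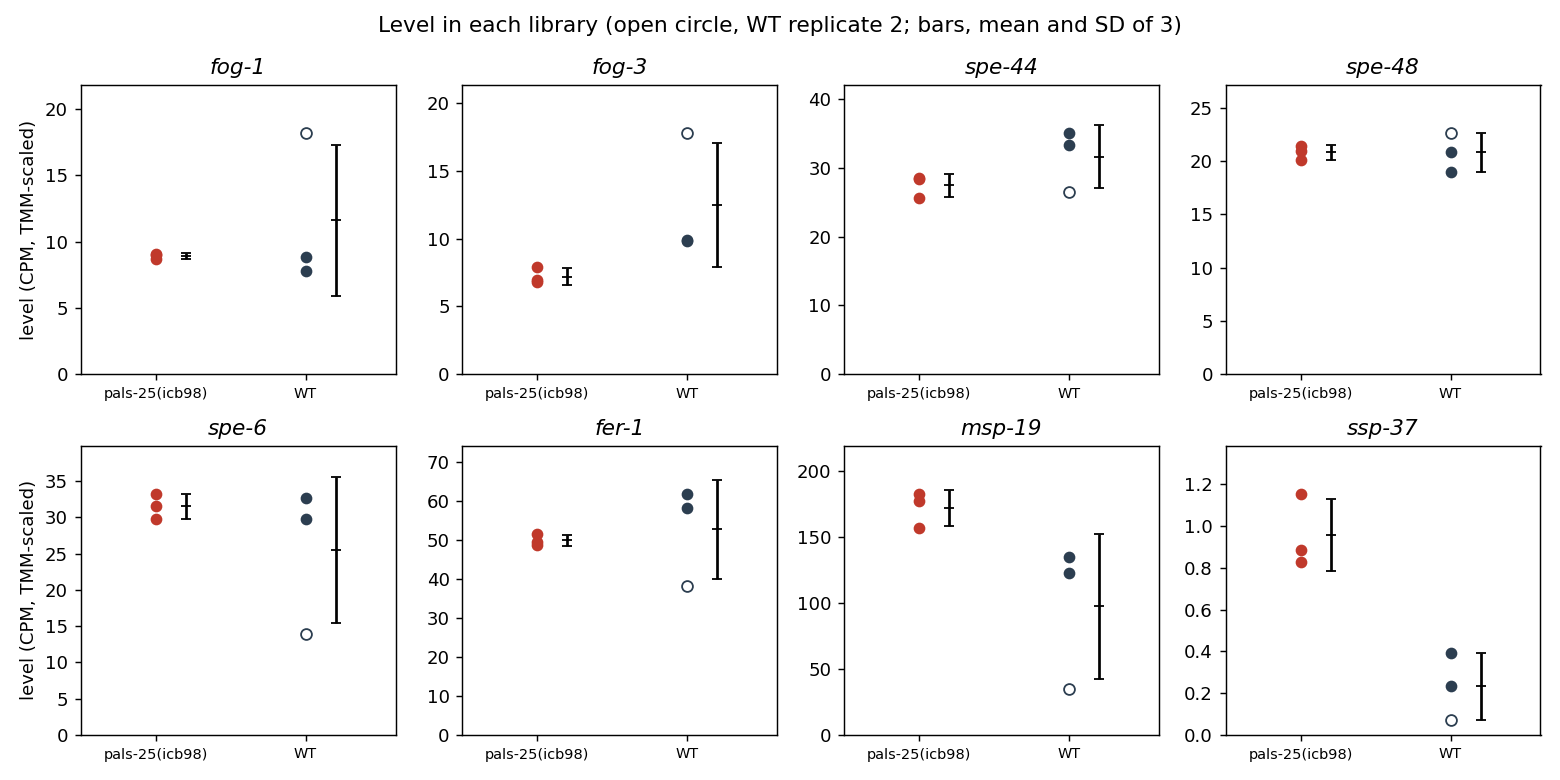
Level in CPM (TMM-scaled) of 8 genes in each library, pals-25(icb98) at left in red and WT at right in dark blue, with WT replicate 2 as the open circle and bars for the mean and SD of 3. The open circle is highest for fog-1 (18.2 CPM), fog-3 and spe-48 and lowest for spe-44, spe-6, fer-1, msp-19 and ssp-37 within WT.

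Of the marker lists for other cells and for developmental timing, the oocyte and yolk sums moved with the same libraries. They were highest in the mutant and lowest in WT replicate 2, an order the germline, male soma and molting sums did not keep. The germline sum was also lowest in WT replicate 2, but its mutant libraries overlapped WT replicates 1 and 3. The 16 oocyte and eggshell genes summed to 2449, 2084 and 2462 CPM in the mutant and to 1372, 646.7 and 1347 CPM in WT. All 16 were lowest in WT replicate 2 (median log2 ratio -1.04). With all libraries 6 rose and 0 fell (9.8% and 10.7% of all tested genes), and without WT replicate 2 all 16 rose (19.3% of all tested genes). The 6 vitellogenins, yolk proteins of the adult intestine, summed to 13819, 11718 and 16423 CPM in the mutant and to 5095, 2662 and 5521 CPM in WT. With all libraries 4 rose, and 3 without WT replicate 2, when vit-1 was no longer called (edgeR adjusted p = 0.15). Of all tested genes, 9.8% and 19.3% rose in these fits.

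General germline genes had summed levels of 2204, 2130 and 2248 CPM for 12 genes in the mutant and 2243, 1770 and 2227 CPM in WT. All 12 were lowest in WT replicate 2, compared with 33.5% of all tested genes. Their median log2 ratio there was -0.40, with 0 over 2-fold lower. With all libraries 0 were called (2 higher and 0 lower at an unadjusted p under 0.05, by edgeR), and without WT replicate 2, 3 rose and 1 fell. Beside the counts of calls in this paragraph, 9.8% of all tested genes rose and 10.7% fell with all libraries. Without WT replicate 2, these shares were 19.3% and 18.1%. At an unadjusted p under 0.05 with all libraries, by edgeR, 16.2% of all tested genes were higher and 19.8% lower. col-19, an adult cuticle collagen gene, had 583.7, 477 and 635.1 CPM in the mutant, against 62.6, 19 and 71.3 CPM in WT, and rose with a log2 difference of 3.47 (SE 0.51, edgeR adjusted p = 0.00923), and of 3.08 (SE 0.17, edgeR adjusted p = 0.000296) without WT replicate 2. Of 10 molting and cuticle genes, 3 rose and 6 fell, also without WT replicate 2. Their median log2 ratio in WT replicate 2 was 0.05, with 2 over 2-fold lower (col-19 and col-7) and 1 over 2-fold higher. That gene, noah-1, an epidermal matrix gene of the molt, had 127.8, 193.4 and 114.4 CPM in the mutant, against 241.9, 1000 and 380 CPM in WT, and was not called in either fit (edgeR adjusted p = 0.0617, and 0.11 without WT replicate 2). WT replicate 2 was thus lowest for the summed oocyte, yolk and general germline genes and for col-19 too. The molting list as a whole had no common direction there. Of 9 genes of the male soma, pkd-2, lov-1 and cwp-1 to cwp-3 were at or below 0.43 CPM in every library. The other 4 were measured at up to 13.8 CPM (swm-1 in WT replicate 2), and 0 of them were called in either fit (0 higher and 1 lower at an unadjusted p under 0.05 with all libraries, by edgeR). The part of these oocyte, yolk, germline and cuticle differences in the levels of the sperm genes was not tested.

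**Figure D5:**
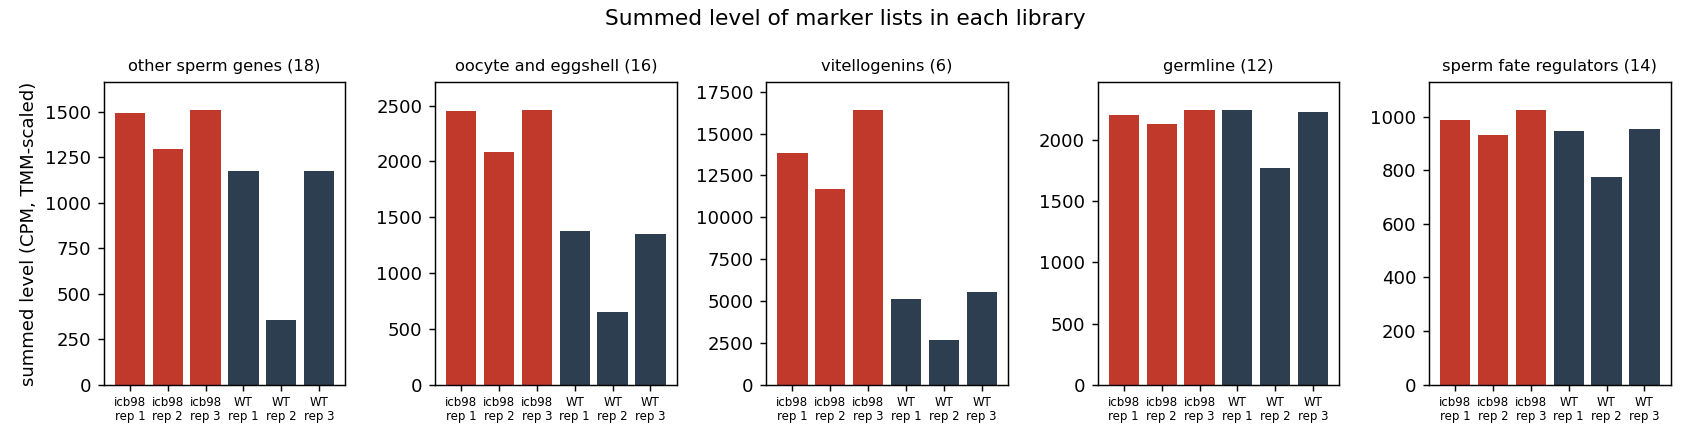
Summed level in CPM (TMM-scaled) of 5 gene lists in each library, pals-25(icb98) in red and WT in dark blue, with the number of genes in each title and each axis starting at 0. The lists of other sperm genes, oocyte genes and vitellogenins have their highest bars in the mutant and their lowest in WT replicate 2 (357.1 CPM for other sperm genes). The germline and fate regulator lists vary less, with their lowest bars in WT replicate 2 too.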

How the data were processed

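RNA of 6 whole-animal libraries (3 pals-25(icb98), 3 WT) was quantified by the authors with kallisto against the WS235 transcriptome. The authors deposited, for each transcript, its estimated count without normalization, its length and its effective length. They tested with sleuth, which was not run here. The sources used here give neither tool's version. Here 35862 transcripts were summed to 22010 genes, 99.2% of which matched the Ensembl 115 annotation. Totals are given in the report, and their size limits the precision of the lowest members. Rounded sums were tested with edgeR 4.0.16 (R 4.3.3; TMM, filterByExpr minimum count 10, robust quasi-likelihood, group only), with Benjamini-Hochberg adjustment over all 16166 genes and a call at 0.05. Alternatives used DESeq2 1.42.0 and limma 3.58.1. TPM were computed from counts and effective lengths, and symbols came from Ensembl, then RefSeq. R74.10, named ssp-28 in RefSeq and spp-28 in Ensembl, was left out. Log2 ratios to WT replicates 1 and 3 add 0.1 CPM, and counts of genes over 2-fold between 2 libraries add 0.5 CPM. No pair of libraries differed by as little as sampling noise. Replicates are called biological in the labels, and p-values measure the spread between the libraries kept in each fit. Those of the fit without WT replicate 2 leave out the spread that this library brings. The script recovered known changes of 2-fold or more in simulated data. That simulation held no library set apart like WT replicate 2 and no smaller changes. It therefore does not show how well smaller differences were called here.

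The members, gene lists and the rule for named genes were chosen with earlier results of these data known. The rule named fer-1, preset spe genes by role, the 3 genes highest by mean TPM in each family, called members, and the 3 highest and 3 lowest ratios of WT replicate 2 (37 genes). Members outside it (ssp-19, ssp-33, ssp-36, msp-32, msp-56 and others named by symbol) and the marker genes printed were chosen after their values were seen. Of the marker lists, trp-3 (counted as spe-41), gska-3, mfp-1 and mfp-2 were not used. Gene set tests were not run. The values of 1 member are not reported here.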

Additional observations from a re-analysis of the deposited data

How the results depend on the processing

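The sperm genes' median log2 difference (0.625) lay between 0.618 and 0.764 under every alternative on all 6 libraries, and their median ratio in WT replicate 2 (-1.54) between -1.53 and -1.47. Members called higher were 2 or 3 under DESeq2, limma-voom, limma-trend on TPM, other scaling and no filter, and 1 with the Ensembl symbols alone, an alternative chosen after seeing the data. The replicate block gave 1 member called higher (msp-52 had adjusted p = 0.0807) and 1010 genes called lower overall. Each library's deviations from its own group mean were correlated across the tested genes. Same-numbered libraries gave 0.08, 0.32 and 0.18 by this measure. Not every library correlated best with its own number, so the numbers were not taken to pair them.

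Leaving out 1 library moved the members called higher between 0 and 41, those called lower between 0 and 2, and their median between 0.268 and 0.859. Members called higher were 41 without WT replicate 2, 1 without WT replicate 3 and 0 without WT replicate 1 or any mutant library. Over all genes, calls ranged from 682 to 3165 higher and 330 to 2972 lower. They were 3165 and 2972 without WT replicate 2, 912 and 576 without WT replicate 3, and 682 and 330, 823 and 631, and 724 and 381 without mutant replicates 1, 2 and 3, with 1057 lower without WT replicate 1. The cause was not tested.

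Estimates near 0 changed sign. spe-38 (-0.01) gave 0.007 with DESeq2, 0.001 with RLE factors, 0.216 with limma-voom, 0.157 with limma-trend, 0.172 with the block and, with 1 library left out, -0.41 to 0.575. spe-48 (0.001) gave -0.008 with total-count scaling, -0.005 without the filter and -0.064 to 0.065 with 1 library left out, and fer-1 (-0.08) gave -0.27 to 0.05. Estimates of 6 further genes were below 0 without WT replicate 2 alone, and over the libraries left out ranged from -0.054 to 0.349 for spe-4, -0.06 to 0.198 for spe-5, -0.096 to 0.331 for spe-9, -0.193 to 0.37 for spe-19, -0.14 to 0.279 for spe-49 and -0.19 to 0.317 for spe-51. Summing identical proteins was not run, since no sequences were used here. A count near 1 CPM or less, as for msp-52 and ssp-37, limits what depth can show.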
